A study of Homo sapiens with 6 samples.

Results

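Multiple myeloma arises when a plasma cell clone gains an oncogene, often because a chromosome translocation places that gene beside an immunoglobulin enhancer. Expression of 9 such genes and their relatives was measured by RNA-seq in cells labelled MM.1S, an established human multiple myeloma line: the cyclin D genes CCND1, CCND2 and CCND3, the transcription factor gene MAF, the receptor gene FGFR3 and the histone methyltransferase gene NSD2, and the MYC family genes MYC, MYCL and MYCN. The members were chosen by name from the 58735 genes of the deposited table, and all 9 were found. RNA was compared between 3 control libraries (cells given a non-targeting siRNA, si-NC) and 3 PRMT1 KD libraries (cells given an siRNA against PRMT1, the major type I arginine methyltransferase), collected 72 h after transfection. Both groups share the line and a transient siRNA transfection, and which PRMT1 siRNA was used for sequencing is not given in the sources used here. The methods call replicates dependent biological ones without tying the libraries to separate cultures, so p-values measure the spread between these libraries, which may be technical. Values are FPKM, fragments scaled by gene length and library size, so levels of different genes can be compared.

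Cyclin D proteins bind the kinases CDK4 and CDK6 and drive the cell from G1 into DNA replication by phosphorylating the retinoblastoma protein. Raised expression of at least one cyclin D gene is a near general feature of myeloma, either because the cyclin gene is itself translocated (CCND1, CCND3) or because an upstream oncogene raises it, as MAF does for CCND2. A translocation to the locus of NSD2 can raise both NSD2 and its neighbour FGFR3, and rearrangements near MYC are common as the disease progresses. MM.1S is known as a line in which MAF is joined to the immunoglobulin heavy chain locus and is strongly expressed.

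The libraries were first checked against their labels. Reads worked back from the deposited values came to between 14439217 and 16465026 per library. PRMT1, the targeted gene, was at 61.7, 62.8 and 58.9 FPKM in the control libraries and at 13.3, 14.02 and 12.5 FPKM in the PRMT1 KD libraries, which was 21.7% of the control mean. That difference of -2.13 in log2 (limma, standard error 0.0552) had an adjusted p of 2.77e-05. All 9 plasma cell markers examined had a mean of at least 1 FPKM, with XBP1, a factor of secretory plasma cells, at 258 to 292 FPKM, and CD38 was the lowest of them at 1.82 to 2.57 FPKM. Their summed level was 1329 to 1409 FPKM in control and 1314 to 1487 FPKM in PRMT1 KD libraries, and 1 of the 9, SLAMF7, was lower in PRMT1 KD (38.0 against 23.8 FPKM, limma adjusted p = 0.00515). Myeloid and stromal markers did not reach 1 FPKM (5 genes each), of 5 B cell markers 2 did, and of 5 T cell markers 3 did, led by CD4 at 36.8 to 41.6 FPKM and CD3E at 32.1 to 39.0 FPKM. The T cell markers summed to 72.5 to 78.1 FPKM in control and 80.8 to 82.8 FPKM in PRMT1 KD libraries, with none of them called, while CD8A was listed at 0 and CD3D did not exceed 0.845 FPKM. The B cell marker MS4A1 was listed at 0 as well. The part of these markers in the results was not tested. In bulk RNA, fewer cells of a type and less RNA per cell cannot be told apart.

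MAF went against what is known of the labelled line. MAF (ENSG00000178573, chromosome 16, 79585843 to 79600714, minus strand, GRCh38) was listed at 0 in all 6 libraries. A floor of 3 reads per library was set for a count of 0, which for this gene is at most 0.0299 FPKM. WWOX, an oxidoreductase gene inside which many MAF breakpoints fall, was at 1.36 to 1.86 FPKM over the 6 libraries. Myeloma with a MAF translocation is known for CCND2 as its main cyclin D gene, whereas in these libraries CCND1 was the highest, at 98.6 to 116 FPKM beside 12.9 to 13.6 FPKM for CCND2, and MYEOV, the neighbour of CCND1, was at 12.03 to 16.2 FPKM. MM.1S is therefore used only as the name given by the labels, and whether the sequenced cells were that line was not tested, which touches every result given here, those on CCND1 and MYEOV included.

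In the control libraries the order of levels was MYC, CCND1, NSD2, CCND2, CCND3, MYCN, FGFR3 and then MAF and MYCL at 0. From MYC to FGFR3, each gene's lowest control library lay above the highest control library of the next gene, and the same order and separation held in the PRMT1 KD libraries. FGFR3, with 0 in 1 control library, was not separated from MAF and MYCL in control. Among all 58735 genes, MYC ranked 128th and CCND1 285th by mean control FPKM. The plot of FPKM by library shows a span from over 200 FPKM to genes without reads.

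**Figure D1:**
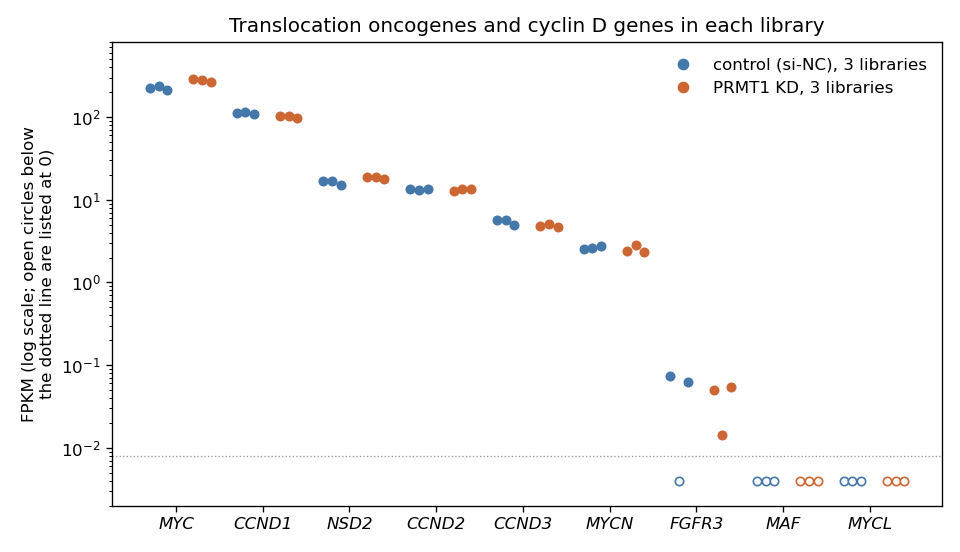
FPKM (log axis) of the 9 genes in each of the 3 control (blue) and 3 PRMT1 KD (orange) libraries, 1 circle per library, with open circles under the dotted line for values listed at 0. MYC and CCND1 stood above all other members, at 212 to 286 and 98.6 to 116 FPKM, and MAF and MYCL were listed at 0 in every library.

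PRMT1 KD was compared with control by limma on log2(FPKM + 1) over the 13585 genes with a mean of at least 1 FPKM, with p-values adjusted by the Benjamini-Hochberg method over all of them. Fold changes are on that log2 scale, which understates those of low genes, and a gene counts as called where its adjusted p was under 0.05. Of the 9 members, 6 passed the filter and were tested, FGFR3 had reads but fell under it, and MAF and MYCL were at 0. MYC was called, as higher, and the other 5 tested were not, whereas 2.05% of all genes tested were called, 1.07% as higher and 0.986% as lower. The groups did not overlap in 3 of the 6 (MYC and NSD2 above control, CCND1 below it), beside 25.9% of all genes tested. For each of these 3 the exact permutation p (two-sided) was 0.1, the smallest value that 3 libraries against 3 allow.

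**Figure D2:**
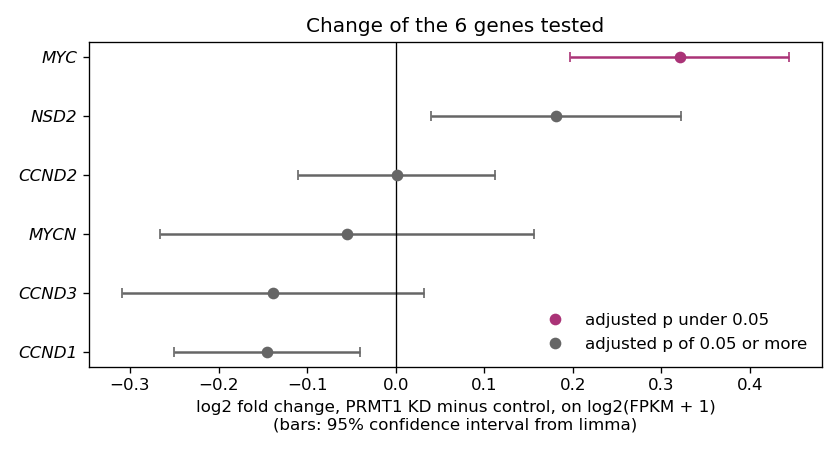
Log2 fold change (PRMT1 KD minus control, on log2(FPKM + 1)) of the 6 members tested, with 95% confidence intervals from limma over 3 libraries per group. The interval of MYC ran from 0.20 to 0.44 and MYC was the member called, while the intervals of CCND2, CCND3 and MYCN held 0.

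CCND1 (ENSG00000110092, chromosome 11, 69641087 to 69654474, plus strand), which encodes cyclin D1, was the predominant cyclin D gene in these libraries, against what is known of the labelled line. It was at 113, 116 and 107 FPKM in the control libraries and at 102, 102 and 98.6 FPKM in the PRMT1 KD libraries. Every PRMT1 KD library was under every control library, and the PRMT1 KD mean was 90.3% of the control mean (112 ± 4.23 against 101 ± 2.19 FPKM, SD, n = 3 each). The log2 fold change of CCND1 was -0.15 (95% confidence interval -0.25 to -0.040) with a limma adjusted p of 0.139, so it did not pass the threshold over all genes. It rested on 7121 to 9023 reads per library. CCND1 overlaps the end of LTO1 on the opposite strand, a gene at 4.94 to 5.75 FPKM, and whether counting used strand is not given in the sources used here.

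CCND2 (ENSG00000118971, chromosome 12, 4273772 to 4305350, plus strand), the cyclin D gene that MAF can raise, was at 13.5, 13.0 and 13.4 FPKM in control and at 12.9, 13.4 and 13.6 FPKM in PRMT1 KD libraries. The groups overlapped and the means were 13.3 FPKM in both. Its log2 fold change was 0.0013, with a 95% confidence interval from -0.11 to 0.11 (limma adjusted p = 0.992), so no direction is given for it. CCND3 (ENSG00000112576, chromosome 6, 41934933 to 42050357, minus strand), encoding cyclin D3, was at 5.68, 5.64 and 4.92 FPKM in control and at 4.78, 5.06 and 4.63 FPKM in PRMT1 KD libraries. Its control replicate 3 lay between the PRMT1 KD values, and the log2 fold change of -0.14 (95% confidence interval -0.31 to 0.032) had a limma adjusted p of 0.346.

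The balance of the cyclin D genes was compared as shares of their summed FPKM. CCND1 made up 85.7% ± 0.411 (SD, n = 3) of it in control and 84.8% ± 0.430 (SD, n = 3) in PRMT1 KD libraries. CCND2 made up 10.3%, 9.65% and 10.6% in control libraries, against 10.8%, 11.1% and 11.6% under PRMT1 KD. All 3 PRMT1 KD shares of CCND2 lay above the control shares, by 0.98 percentage points on average (exact two-sided permutation p = 0.1, the smallest possible). The CCND2 mean was 13.3 FPKM in both groups, so its share rose because the sum was smaller. It is no result apart from the differences of CCND1 and CCND3, neither of which was called. The cyclin D sum was 131 ± 4.47 FPKM (SD, n = 3) in control and 119 ± 2.17 FPKM (SD, n = 3) in PRMT1 KD libraries (exact permutation p = 0.1), and this difference came mostly from CCND1.

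**Figure D3:**
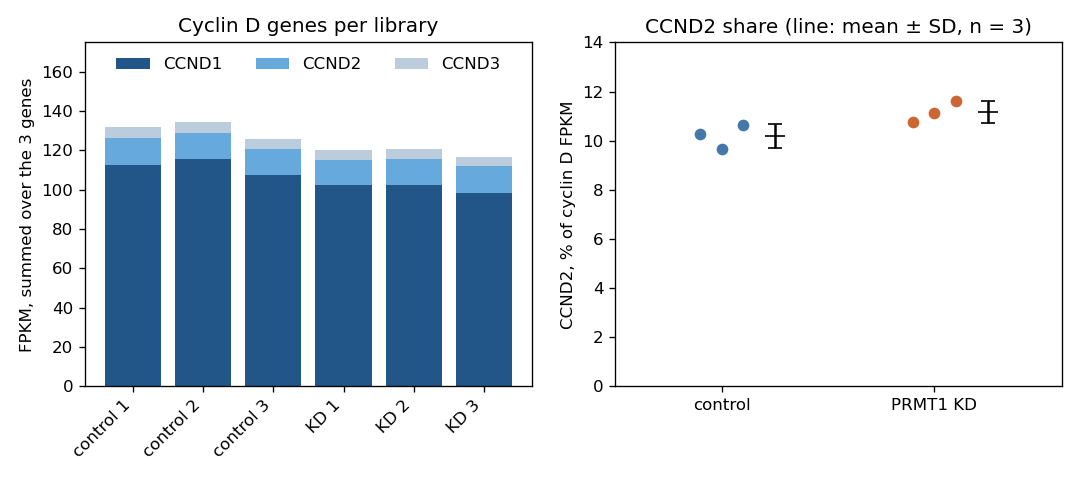
Left, FPKM of CCND1, CCND2 and CCND3 stacked for each library, from 117 to 134 FPKM in sum. Right, the share of CCND2 in that sum in percent, 1 point per library with mean and SD (n = 3) beside it, at 9.65% to 10.6% in control and 10.8% to 11.6% in PRMT1 KD.

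Partners of cyclin D were taken as a list of 30 kinases, inhibitors, substrates and turnover factors, of which 29 were tested and 1, CDKN1C, was listed at 0. Of the 29, 2 were higher in PRMT1 KD, none was lower and 27 were not called, which is 6.90% called beside 2.05% of all genes tested. The median log2 fold change of the 29 was 0.062, beside 0.0095 over all genes tested. CDK6, one of the kinases that cyclin D activates, had control values of 13.0 to 15.1 FPKM and PRMT1 KD values of 19.7 to 20.4 FPKM, without overlap. CDK6 thus had a log2 fold change of 0.50 with a standard error of 0.0613 and, by limma, an adjusted p of 0.024. CDK4, the other such kinase, was at 39.1 ± 2.56 FPKM (SD, n = 3) in control and 37.9 ± 0.117 FPKM (SD, n = 3) in PRMT1 KD (log2 fold change -0.043, limma adjusted p = 0.711). CCNA2, the cyclin A2 gene of S phase and an E2F target, was the other gene called, at 48.1 to 50.5 FPKM in control and 58.9 to 63.2 FPKM in PRMT1 KD (log2 fold change 0.28, limma adjusted p = 0.0404). RBL2, which encodes the retinoblastoma relative p130, was at 19.2 and 22.9 FPKM on average, with a limma adjusted p of 0.0514.

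MAF is a leucine zipper transcription factor, and the large MAF proteins, MAFA and NRL among them, share its activation domain. MAFA was at no more than 0.0495 FPKM and NRL at 0.194 to 0.418 FPKM. The small MAF genes, whose proteins lack that domain, were expressed. MAFG was at 25.8 to 29.6 FPKM, MAFK at 7.45 to 9.13 FPKM and MAFF at 1.53 to 1.98 FPKM over the 6 libraries. None of these 3 was called by limma, none had an unadjusted p under 0.05 and voom on the reads worked back called none.

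Of 12 genes of the MAF expression signature of myeloma, 5 were listed at 0 in every library, 3 had reads but a mean under 1 FPKM, and 4 were tested. Over all 58735 genes, 24657 were listed at 0 in every library and 20493 had reads but a mean under 1 FPKM. CCR1, a chemokine receptor, and NUAK1, a kinase, both known as MAF-driven in myeloma, were among those at 0. ITGB7, the integrin beta 7 gene that MAF activates, had 1 to 7 reads per library (0.0135 to 0.109 FPKM). DEPTOR, an inhibitor of mTOR kinase that is high in MAF myeloma, was at 7.70 ± 0.849 FPKM (SD, n = 3) in control and 9.71 ± 0.812 FPKM (SD, n = 3) in PRMT1 KD, with a limma adjusted p of 0.133. AHNAK, which encodes a very large scaffold protein, was called higher, from 12.2 ± 0.569 to 16.3 ± 0.723 FPKM (SD, n = 3 each; log2 fold change 0.39, limma adjusted p = 0.0323). It was the 1 gene called of the 4 tested, or 25%, beside 2.05% of all genes tested. RND3, a small GTPase gene, was at 7.79 and 5.31 FPKM on average, without overlap of the groups, and had a limma adjusted p of 0.0796. Of the 4 tested, 2 had all PRMT1 KD libraries above control and 2 had all below it. The groups did not overlap, in either direction, for 25.9% of all genes tested. The median log2 fold change of the 4 tested was 0.046.

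NSD2 (ENSG00000109685, chromosome 4, 1871424 to 1982207, plus strand) encodes an enzyme that places the dimethyl mark on histone H3 lysine 36. It was at 16.8, 16.9 and 14.9 FPKM in control and at 18.8, 18.6 and 18.03 FPKM in PRMT1 KD libraries. All 3 PRMT1 KD libraries lay above the controls, and the mean was 114% of control. The log2 fold change of NSD2 was 0.18 (95% confidence interval 0.039 to 0.32) with a limma adjusted p of 0.162, so NSD2 was not called. The small nuclear RNA gene SCARNA22 lies inside NSD2 on the same strand, at up to 1.67 FPKM.

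FGFR3 (ENSG00000068078, chromosome 4, 1793293 to 1808872, plus strand), a receptor tyrosine kinase gene, had at most 6 reads in any library. Its values were 0.0747, 0 and 0.0624 FPKM in control and 0.04997, 0.0143 and 0.0542 FPKM in PRMT1 KD libraries, which overlapped and were too low to test. The genes beside NSD2 and FGFR3 were expressed. TACC3, a spindle gene, was at 30.9 and 33.5 FPKM on average (limma adjusted p = 0.403) and LETM1, a mitochondrial membrane gene, at 17.7 and 17.2 FPKM (limma adjusted p = 0.824). TMEM129, which encodes a ubiquitin ligase of the endoplasmic reticulum and lies in the same region, was called lower, from 19.7 ± 0.414 to 14.9 ± 0.794 FPKM (SD, n = 3 each; log2 fold change -0.39, limma adjusted p = 0.0291).

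Of 23 genes of FGF receptor signalling, 13 were tested and 1 was called (7.69%, beside 2.05% of all genes tested). SPRY1, a feedback inhibitor of receptor tyrosine kinases, was higher in PRMT1 KD, at 5.62 to 5.83 FPKM in control and 7.12 to 8.31 FPKM in PRMT1 KD libraries (log2 fold change 0.39, limma adjusted p = 0.0443). FGFR4 was the receptor of this family with appreciable reads, at 13.2 to 15.3 FPKM in control and 16.4 to 17.4 FPKM in PRMT1 KD libraries (limma adjusted p = 0.113), while FGFR1 did not exceed 0.0314 FPKM. The ETS factor gene ETV5 was at 11.4 and 9.68 FPKM on average (limma adjusted p = 0.122). The median of the 13 was 0.038.

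Of 18 writers, erasers and readers of histone H3 lysine 36 methylation, 17 were tested, 1 was higher (5.88%, beside 2.05% called of all genes tested), none was lower, and the median log2 fold change was 0.11. The gene called was DNMT3B, a DNA methyltransferase that binds this mark, which was at 12.3 ± 1.34 FPKM (SD, n = 3) in control and 17.1 ± 0.928 FPKM (SD, n = 3) in PRMT1 KD (log2 fold change 0.45, limma adjusted p = 0.0497). The demethylase genes KDM2A and KDM2B had log2 fold changes of 0.33 and 0.31 and limma adjusted p of 0.0847 and 0.0995. All PRMT1 KD libraries lay above control for 6 of the 17 and below it for 3. Over all 13585 genes tested this held for 1845 and 1668. SETD2, the trimethylating enzyme, was at 12.7 and 14.3 FPKM on average (limma adjusted p = 0.165). NSD1, a relative of NSD2 that most tissues express, had only 2 to 5 reads per library (0.00847 to 0.0195 FPKM). Whether this came from the cells or from the counting was not tested.

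MYC (ENSG00000136997, chromosome 8, 127735434 to 127741434, plus strand), a master regulator of growth and ribosome production, was the only member called. It was at 223, 234 and 212 FPKM in the control libraries and at 286, 284 and 267 FPKM in the PRMT1 KD libraries. The lowest PRMT1 KD library lay well above the highest control library, and the mean rose from 223 ± 11.1 to 279 ± 10.2 FPKM (SD, n = 3 each), 125% of control. The log2 fold change of MYC was 0.32 (standard error 0.0521, 95% confidence interval 0.20 to 0.44, limma adjusted p = 0.0399). It rested on 10526 to 14174 reads per library. The direction held in all 17 alternatives, but leaving out any 1 of the 6 libraries ended the call (limma adjusted p from 0.0686 to 0.17), as did median scaling (0.0506), no filter on low values (0.129), no trend (0.0845) and an ordinary linear model (0.116).

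MYCN (ENSG00000134323, chromosome 2, 15940564 to 15947007, plus strand), the neural relative of MYC, was at 2.55, 2.62 and 2.77 FPKM in control and at 2.37, 2.86 and 2.32 FPKM in PRMT1 KD libraries. The PRMT1 KD values lay on both sides of the control values (log2 fold change -0.055, 95% confidence interval -0.27 to 0.16, limma adjusted p = 0.779). It had 92 to 119 reads per library. MYCN overlaps the antisense gene MYCNOS, at 0.251 to 0.526 FPKM. MYCL (ENSG00000116990, chromosome 1, 39895426 to 39902256, minus strand) was listed at 0 in all 6 libraries, which at the floor of 3 reads is at most 0.0412 FPKM. MYC thus made up 98.8% ± 0.0983 (SD, n = 3) of the FPKM of the MYC family in control and 99.1% ± 0.0914 (SD, n = 3) in PRMT1 KD libraries (exact permutation p = 0.1).

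MYC binds DNA as a dimer with MAX, and MXD and MNT proteins compete for MAX as antagonists. A list of 22 partners, antagonists and turnover factors of MYC was tested in full and limma called none. Of the 22, 3 had an unadjusted p under 0.05 and 1 was called by voom. Over all 13585 genes tested these counts were 2655 and 895. MAX was at 11.5 ± 0.616 FPKM (SD, n = 3) in control and 11.0 ± 1.13 FPKM (SD, n = 3) in PRMT1 KD (limma adjusted p = 0.726). The antagonists MXI1 (14.96 and 15.8 FPKM), MXD4 (8.09 and 7.67 FPKM) and MNT (4.18 and 4.30 FPKM) had overlapping groups and limma adjusted p of 0.511, 0.673 and 0.918. MXD1 was at 2.91 and 3.46 FPKM, without overlap, at a limma adjusted p of 0.179. FBXW7, the ubiquitin ligase subunit that marks MYC for degradation, was at 5.09 and 5.45 FPKM (limma adjusted p = 0.639), and AURKA, a kinase that stabilises MYC family proteins, was at 22.2 and 25.5 FPKM (limma adjusted p = 0.0847).

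Of 32 known target genes of MYC, all were tested, 2 were higher in PRMT1 KD, 1 was lower and 29 were not called, which is 9.38% called beside 2.05% of all genes tested. NOLC1, a nucleolar phosphoprotein gene, was at 33.5 to 38.4 FPKM in control and 47.5 to 47.8 FPKM in PRMT1 KD libraries (log2 fold change 0.37, limma adjusted p = 0.0377). IMPDH2, the rate-limiting enzyme of guanine nucleotide synthesis, was at 72.6 ± 2.23 and 86.2 ± 2.85 FPKM (SD, n = 3 each; log2 fold change 0.24, limma adjusted p = 0.0491). The glycolytic enzyme gene ENO1 was lower, at 324 to 360 FPKM in control and 245 to 252 FPKM in PRMT1 KD libraries (log2 fold change -0.47, limma adjusted p = 0.0154). The median of the 32 was 0.046, and 22 of them had a log2 fold change above 0, beside 7143 of the 13585 genes tested.

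Genes beside the known breakpoints were taken as a list of 19 symbols, of which 18 were in the table and 11 were tested. MYEOV, which lies beside CCND1 and can be activated together with it in myeloma, was called lower in PRMT1 KD. It was at 15.7 to 16.2 FPKM in control and 12.03 to 12.5 FPKM in PRMT1 KD libraries (log2 fold change -0.35, standard error 0.0449, limma adjusted p = 0.0246). With TMEM129 it made up the 2 genes called, both lower (18.2% of the 11, beside 2.05% of all genes tested). PVT1, the non-coding RNA gene beside MYC, was at 4.06 to 4.43 FPKM in control and 4.51 to 5.30 FPKM in PRMT1 KD libraries, without overlap, at a limma adjusted p of 0.299. FGF3 and FGF4, which also lie near CCND1, were listed at 0.

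**Figure D4:**
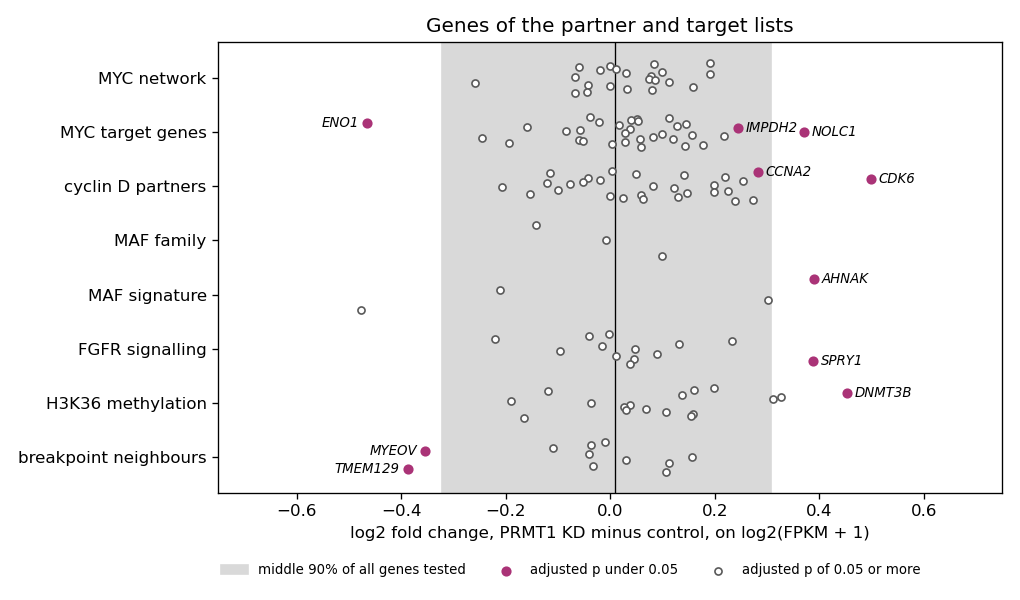
Log2 fold change (PRMT1 KD minus control) of each tested gene in the 8 lists, filled where the limma adjusted p was under 0.05, with the middle 90% of all genes tested shaded (-0.32 to 0.31) and their median as a line. Of 131 genes, 10 were called, 7 higher and 3 lower, and most of the others lay inside the shaded range.

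Over the 8 lists together, 10 of 131 genes tested were called, or 7.63%, beside 2.05% of all genes tested. The lists were chosen with earlier results of these data known, so these shares are descriptions. The split of these calls was 7 higher and 3 lower, and 3 higher and 3 lower after median scaling. Without control replicate 3, 4 of the 10 stayed called (NOLC1, ENO1, CDK6 and MYEOV), and without any 1 of the other 5 libraries none did. The log2 fold changes stayed close to those with all libraries, at 0.45 to 0.55 for CDK6 and -0.51 to -0.43 for ENO1. The direction of each of the 10 held in every alternative run for it.

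Likeness to the members was measured as Pearson's r of log2(FPKM + 1) over the 6 libraries. The 3 genes most like MYC were the immunoglobulin gene IGHA2 (r = 0.998), whose reads can be shared with its near copy IGHA1, SFI1 (r = 0.998) and GPAA1 (r = 0.997), and 478 genes had an r above 0.9 with it. For CCND2 they were PILRA (r = 0.984), MBTPS2 (r = 0.979) and AL512310.1 (r = 0.969), with 50 genes above 0.9. These are descriptions over 6 points that share the knockdown contrast and the library scaling. MAF, at 0 throughout, has no such measure.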

How the data were processed

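Total RNA of 3 control and 3 PRMT1 KD libraries was sequenced. The deposited table gives FPKM for every gene in each library, made by the authors, beside gene lengths. The submitters' processing notes name featureCounts 1.5.0-p3 and hg38, and the aligner and annotation release are not given in the sources used here. FPKM multiplied by gene length gave whole multiples of 1 step per library for 100% of values above 0 (tolerance 0.01), which gave the reads per gene. The deposited values already included median-of-ratios scaling (ratio 1 in each library). All 58735 genes, the 9 members included, had their GENCODE 29 coordinates on GRCh38.

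Groups and replicate numbers came from the sample titles. The whole table was fitted in R 4.3.3 by limma 3.58.1 (trended empirical Bayes, two-sided, Benjamini-Hochberg) on log2(FPKM + 1), with a mean FPKM of at least 1. The fit was tried on simulated data whose changes were larger than those of the members and of the list genes called. That trial cannot tell how well changes of this size are found. Shares and single genes were compared with exact permutation tests (scipy 1.17.1). The members and lists were chosen with earlier results of these data known, and lists were written from general knowledge. Named genes were the members, PRMT1, a set of partner genes, each list's genes called or its 3 smallest p, and the 3 genes most like MYC and CCND2. Other genes of the lists, and markers, are named to account for those at or near 0, to cover every tested MAF signature gene, or as checks. They were chosen after their values were seen. Alternatives covered pseudocount, filter, scaling, variance model, voom, replicate block and each library left out. Some genes that the naming rule picked are not reported here.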

Additional observations from a re-analysis of the deposited data

How the results depend on the processing

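The count of 279 genes called (145 higher, 134 lower) fell to 35 with no filter, 43 without trend and 12 with an ordinary linear model, rose to 473 at a mean FPKM of at least 5 and 895 with voom, and was 13 to 94 with 1 library left out. The split was 82 higher and 139 lower after median scaling, 222 and 133 as TPM. Of genes in the lists, 10 were called, against 1 with no filter, 16 at a mean FPKM of at least 5, 6 after median scaling, 23 with voom and 0 to 4 with 1 library left out. It was 0 without trend and 0 with an ordinary linear model. There 32 and 38 of the 131 list genes tested had an unadjusted p under 0.05, beside 2587 and 2373 of all 13585 genes tested. Voom called 23 list genes, beside 895 of all genes tested. The log2 fold change of MYC, no longer called, was 0.32 with no filter, without trend and with an ordinary linear model, 0.30 after median scaling and 0.28 to 0.36 with 1 library left out. CCND2 changed sign at -0.018 after median scaling, -0.018 after quantile normalization, -0.0063 with voom and -0.016 scaled by total reads, an alternative chosen after seeing the data. It was -0.015 to 0.021 with 1 library left out. The median of all genes tested was 0.0095 in the main fit and -0.0081 under median scaling. That median was 0.0039 after quantile normalization, 0.0048 with voom and -0.0058 scaled by total reads. MAFG was 0.012 as TPM and -0.062 to 0.034 with 1 library left out, where MAX was -0.12 to 0.013, MNT -0.058 to 0.12 and LETM1 -0.11 to 0.0019. CCND1, CCND3, NSD2 and MYCN kept their direction and stayed uncalled in all alternatives run. The causes were not tested, except that fewer libraries or other filters change how many samples or genes were fitted.

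In a model with a replicate block, 204 genes were called, 6 of them in the lists, MYC stayed called (limma adjusted p = 0.0441), and no other member's call changed. Libraries of the same number deviated from their groups with correlations of 0.02, 0.0631 and 0.101. Those of different numbers ranged from -0.0751 to 0.0186. All same-number values were thus above the others, though small, and whether the numbers pair the libraries was not tested. The main fit used no block. The CCND2 share kept its direction in all 8 alternatives, from 0.714 to 1.31 percentage points, and was 0.98 with the block. This share is no result apart from CCND1 and CCND3, both uncalled. The ratio of MAF to CCND2 was not run, because MAF was listed at 0. With 3 libraries a group, an exact permutation test cannot go below 0.1.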
